A study of Mus musculus with 6 samples.

Results

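The genes examined were 38 genes whose proteins add, bind or remove the poly(A) tail of mRNA, chosen from the 55376 genes of the count table by a rule that reads gene names and no measured value. They comprised 18 genes of cleavage and polyadenylation, 17 genes of deadenylation and 3 poly(A) binding proteins. Their own mRNAs were followed in an RNA immunoprecipitation (RIP-seq) of cytoplasmic polyadenylation element binding protein 1 (CPEB1) from the satellite cells (SCs) of mouse muscle, its stem cells. The SCs were sorted from C57BL/6 mice aged 3 months and used as freshly isolated cells. All 6 libraries came from such cells: 2 from the precipitate of an anti-CPEB1 antibody (CPEB1 IP), 2 from the precipitate of anti-IgG as background control (IgG), and 2 from total RNA that was not precipitated (input). The study describes 2 biological replicates per group from independent RIP experiments, but the labels do not tie the libraries to animals, and p-values measure only the spread between these libraries.

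A poly(A) tail is added in the nucleus after the cleavage and polyadenylation specificity factor (CPSF), the cleavage stimulation factor (CstF) and the cleavage factors CFIm and CFIIm have placed the cut, and poly(A) polymerase extends the new end. Poly(A) binding proteins then coat the tail, and PAN2-PAN3, PARN and the CCR4-NOT complex shorten it, the last of these often recruited by proteins of the BTG/TOB family. CPEB1 binds the cytoplasmic polyadenylation element (CPE), a short U-rich sequence in 3′ UTRs, and in other cells it is known to act on tails together with CPSF, symplekin, PARN and a cytoplasmic poly(A) polymerase. The genes described here are thus partners or relatives of the precipitated protein, and the question was how far their own transcripts came down with it.

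CPEs were common in the 3′ UTRs of these genes. TTTTAT or TTTTAAT was found on the sense strand of at least 1 annotated 3′ UTR in 33 of the 38 genes (86.8%, exact Clopper-Pearson 95% interval 71.9 to 95.6), beside 57.9% of the 20913 genes with an annotated 3′ UTR and 66.9% of the 10881 such genes that entered the test of CPEB1 IP against IgG. The interval treats genes as independent draws, which the genes of a chosen list are not, and the difference between these shares was not tested. The median longest 3′ UTR was 1308 bases for the 38 genes and 1285 bases for the genes tested. The 5 genes without a match were Cpsf1, Sympk, Pabpn1, Parn and Cnot10, and the 3′ UTRs of Cpsf1 (79 bases) and Sympk (100 bases) were the shortest of the list. A match is only a run of letters, and the absence of these letters says nothing about binding. The sequences below are from the 10 genes that differed between CPEB1 IP and IgG, of which 9 held a CPE in the longest 3′ UTR. Each shows 30 bases of the mRNA strand, 5′ to 3′, around the CPE nearest the end of the longest 3′ UTR (GRCm38/mm10, GENCODE M21), with the CPE in capitals.
Cpsf2, chr12:102005788-102005817, plus strand: ctcttccagacaTTTTATaaagaatcatgt
Cstf2t, chr19:31086599-31086628, plus strand: ttgtatgtttcaTTTTATttaatacaccag
Papola, chr12:105838018-105838047, plus strand: ttttaaactaatTTTTATttttaaccagtt
Cnot8, chr11:58118546-58118575, plus strand: attatttatgtTTTTAATtttgtaaaataa
Btg2, chr1:134075337-134075366, minus strand: ttcttttttgtTTTTAATaaaaatgtagca
Pabpc1, chr15:36595837-36595866, minus strand: aacaaattaatgTTTTATagaccctgggaa
Cnot4, chr6:35045432-35045461, minus strand: gtagtgtaacatTTTTATtgaacaaacagt
Pan3, chr5:147548460-147548489, plus strand: atagcagtattTTTTAATaaagaattgcag
Cstf3, chr2:104665324-104665353, plus strand: cttactgtttgtTTTTATttatggcagaat

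The first 6 of these genes were higher in CPEB1 IP and the last 3 were lower, so a CPE was present on both sides of that comparison. The number of CPEs in the longest 3′ UTR was 8 in Cpsf2, 7 in Papola, 2 in Cstf2t, 2 in Btg2, and 1 in each of Cnot8 and Pabpc1. Among the genes lower in CPEB1 IP it was 5 in Pan3, 2 in Cnot4 and 2 in Cstf3, while Pabpn1, the fourth of them, had no match in 874 bases. Of the 28 genes that did not pass the test, 24 held a CPE.

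Counts on genes ranged from 1284716 to 4941653 per library, IgG replicate 1 having the fewest and CPEB1 IP replicate 2 the most, and each of the 38 genes passed the filter on low counts in all comparisons. Genes took up 69.5% to 69.9% of the library total behind the deposited FPKM in CPEB1 IP and 71.1% to 79.8% in input, but 39.1% to 39.5% in IgG. All 8 SC markers, among them Pax7 and Calcr, were at 1 FPKM or more in both input libraries, where their summed level was 2058 to 2541 FPKM. The markers of other cell types had lower sums. Ptprc and Cd3e, which define leukocytes and T cells, were at 0 in input replicate 1 and at 0.013 and 0.118 FPKM in input replicate 2. Cd68, the remaining leukocyte gene, was at 12.4 and 6.13 FPKM in input and made up most of the leukocyte sum. In input, 3 myofibre genes summed to 18.9 to 21.8 FPKM, 3 fibro-adipogenic genes to 14.5 to 14.8, 3 leukocyte genes to 6.26 to 12.4, 2 Schwann cell genes to 9.21 to 11.6, and 3 endothelial genes to 2.65 to 3.07. The libraries of CPEB1 IP had higher sums for myofibre (38.6 to 49.8 FPKM), fibro-adipogenic (48.1 to 48.4), endothelial (8.80 to 8.82) and Schwann cell genes (15.7 to 22.3), while the leukocyte sum was 4.4 to 7.85. The SC markers summed to 2232 and 1818 FPKM in CPEB1 IP, mostly Sdc4 (1832 and 1450, beside 1454 and 1757 in input). Pax7, at 39.8 and 46.0 FPKM in input, was at 10.1 and 10.8 in CPEB1 IP and 6.41 and 5.45 in IgG. Calcr, at 82.6 and 110 in input, was at 29.1 and 27.8 in CPEB1 IP. Itga7 and Cdh15 in CPEB1 IP also lay below both input libraries, and Vcam1 slightly so, while Sdc4, Myf5 and Cxcr4 overlapped input. The part of these levels in the results below was not tested.

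The transcripts of the tail machinery spanned a wide range in the SCs. FPKM, which corrects for gene length and so allows genes to be compared, was highest for Btg2, an antiproliferative protein that brings CCR4-NOT to mRNAs, with 325 and 355 in the input libraries. Its relative Btg1 had 84.6 and 122 FPKM, and Pabpc1, the main cytoplasmic poly(A) binding protein, had 93.0 and 107 FPKM. Btg2 stood above every other gene of the list in both input libraries, whereas the values of Btg1 and Pabpc1 overlapped. Tob1 (34.2 and 49.0 FPKM), Tob2 (24.6 and 28.0 FPKM) and Papola (19.3 and 23.6 FPKM), the canonical nuclear poly(A) polymerase, followed. Cnot11, a CCR4-NOT subunit, was lowest at 1.05 and 1.44 FPKM, next to the poly(A) polymerase gamma gene Papolg at 1.62 and 1.70. The cleavage and polyadenylation genes had a median of 6.31 and 7.92 FPKM in the 2 input libraries and the deadenylation genes 9.22 and 11.2 FPKM. Such bulk values cannot tell fewer cells with a transcript from less of it in each cell.

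**Figure D1:**
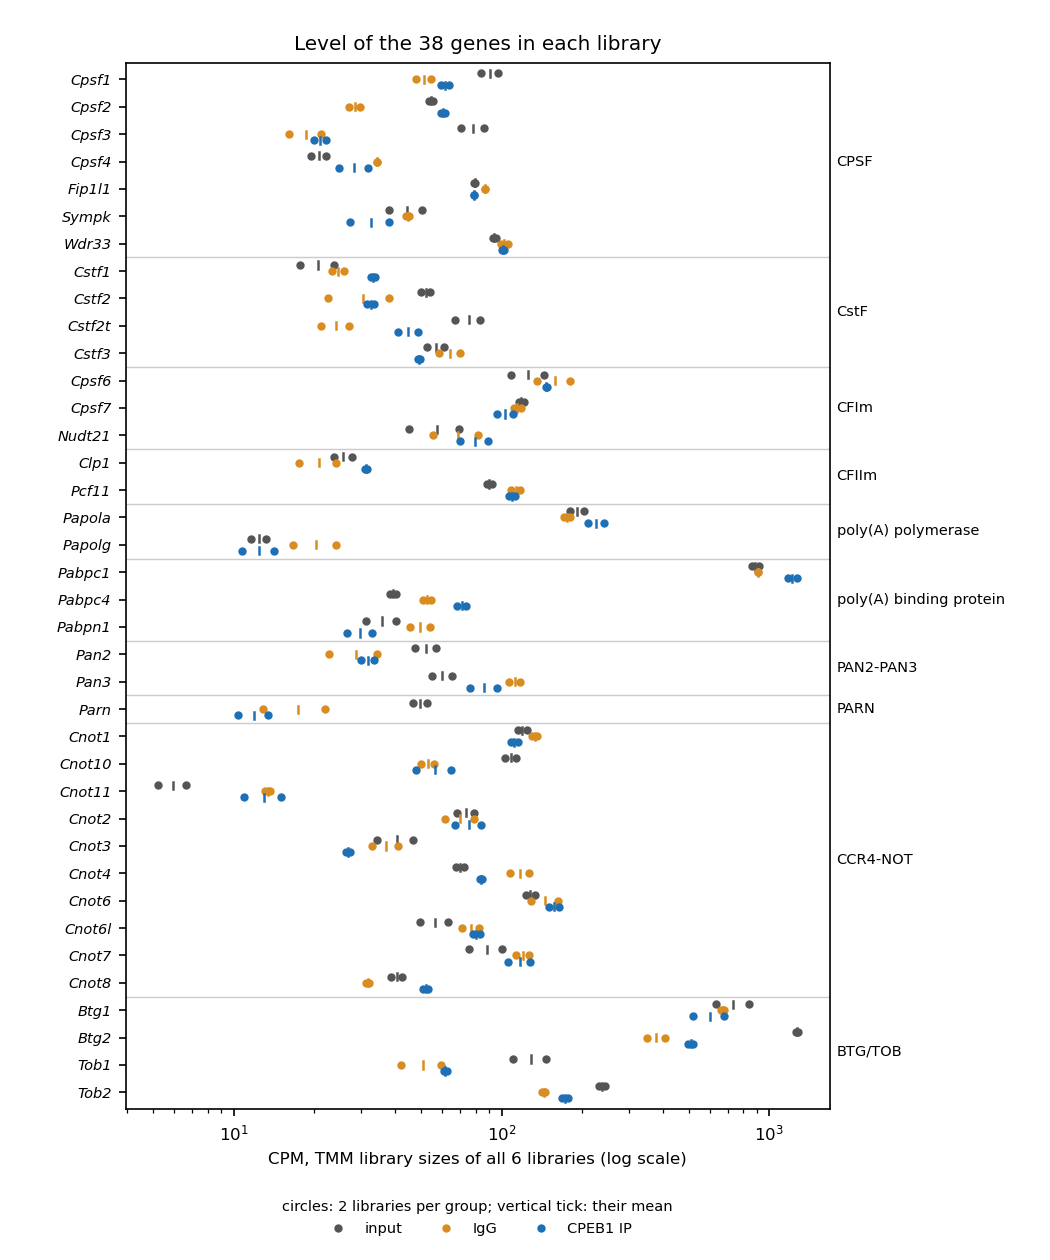
Counts scaled to a common library size (CPM, x axis, log scale, TMM library sizes set over all 6 libraries) of the 38 genes (y axis, grouped by complex), with a circle for each of the 2 input, 2 IgG and 2 CPEB1 IP libraries and a tick at the mean of each group. Parn, Cpsf3, Btg2 and Tob1 sit higher in input than in either precipitate, and Pabpc1 is higher in CPEB1 IP (1172 and 1265 CPM) than in the other 4 libraries.

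CPEB1 IP against IgG asks which transcripts were more abundant in the CPEB1 precipitate than in the background precipitate. Of the 38 genes, 6 were higher in CPEB1 IP (15.8%), where 14.7% of all 12124 genes tested were higher, and 4 were lower (10.5%), where 18.7% of all genes were lower. The share of the list that was higher was therefore close to that of genes at large. Higher were Cpsf2, Cstf2t, Papola, Cnot8, Btg2 and Pabpc1, and lower were Pabpn1, Cnot4, Pan3 and Cstf3. On the TMM scale, which places the typical gene near 0, the median log2 fold change was 0.01 for the list and -0.01 for all genes. Calls were made with edgeR's quasi-likelihood test at a Benjamini-Hochberg adjusted p of 0.05 over all genes tested.

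The counts leaned on how library size was set. With the totals behind the FPKM as library sizes, the median of all genes moved to 0.80 on the log2 scale, 29 of the 38 genes were higher and 0 were lower, and the share of higher calls among all calls rose from 44.0% to 88.4%. DESeq2, with its own size factors and without edgeR's filter on low counts, gave 8 higher and 0 lower genes of the list (72.5% of all calls higher). Without that filter, edgeR gave 11 and 0 (60.1%). The values below are relative to the TMM scale, on which the typical gene is near 0.

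Among the cleavage and polyadenylation genes, Cpsf2 had the largest rise. Cpsf2, a CPSF subunit related to the endonuclease, had 61.2 and 59.5 CPM (CPEB1 IP), 29.6 and 26.9 CPM (IgG) and 53.7 and 55.4 CPM (input), all in CPM, counts scaled to a common TMM library size over all 6 libraries, which differ slightly from the scale of each pairwise test. The IgG libraries were the low ones and the CPEB1 IP libraries lay close to input. The log2 fold change over IgG was 1.02 (SE 0.20, n = 2 libraries per group, adjusted p = 0.000512), and it passed the test under all 12 alternative settings. Cstf2t, a CstF RNA-binding subunit encoded by an autosomal copy of the X-linked Cstf2, had 48.7 and 41.1 CPM (CPEB1 IP), 21.3 and 26.9 CPM (IgG) and 67.2 and 83.4 CPM (input). The 3 groups did not overlap, with input highest and IgG lowest. Its log2 fold change over IgG was 0.81 (SE 0.23, adjusted p = 0.0104), and without CPEB1 IP replicate 1 it was 0.74 (adjusted p = 0.078). Papola had 211 and 242 CPM (CPEB1 IP), 172 and 180 CPM (IgG) and 180 and 203 CPM (input). Its rise over IgG was small, at 0.31 (SE 0.11, adjusted p = 0.039), and it missed the threshold under 7 of 12 alternatives, including a replicate block (adjusted p = 0.0557), without CPEB1 IP replicate 2 (0.361), without IgG replicate 1 (0.0743) and without IgG replicate 2 (0.0509).

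Cstf3, the CstF scaffold subunit, was the 1 of the 18 cleavage and polyadenylation genes called lower in CPEB1 IP. It had 48.7 and 49.5 CPM (CPEB1 IP), 58.5 and 69.9 CPM (IgG) and 52.8 and 60.8 CPM (input). The log2 fold change of -0.45 (SE 0.17, adjusted p = 0.0481) was just past the threshold, was 0.36 with FPKM totals as library size, and missed the threshold with a replicate block (adjusted p = 0.0566) and without CPEB1 IP replicate 1 (0.272), CPEB1 IP replicate 2 (0.277) or IgG replicate 2 (0.341). The other 14 genes of cleavage and polyadenylation did not pass. They included some CPSF subunits that are known to take part in cytoplasmic polyadenylation. Cpsf1, with 63.7 and 59.5 CPM in CPEB1 IP against 54.7 and 48.1 in IgG, had a log2 fold change of 0.19 (SE 0.17). Cpsf4 had 31.7 and 24.8 CPM against 34.2 and 34.2 (log2 fold change -0.37, SE 0.24), and Fip1l1, which tethers the polymerase to CPSF, had 78.7 and 79.1 CPM against 86.6 and 86.7 (-0.20, SE 0.14). Sympk, which encodes the scaffold symplekin, had 37.9 and 27.2 CPM against 44.1 and 45.2 (-0.56, SE 0.22, adjusted p = 0.0585). Of these 4 genes only Cpsf1 had the higher mean in CPEB1 IP on this scale, and none passed the test, while the CPSF subunit Cpsf2 did. With FPKM totals as library size, Fip1l1 was called higher at 0.61 and Cpsf1 at 1.0 (adjusted p = 3.19e-05).

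The poly(A) binding proteins did not move together. Pabpc1 had 1265 and 1172 CPM (CPEB1 IP), 910 and 909 CPM (IgG) and 859 and 912 CPM (input). Both CPEB1 IP libraries lay above the other 4, and IgG and input overlapped. The log2 fold change over IgG was 0.36 (SE 0.09, adjusted p = 0.0047) and passed the test under all 12 alternatives. Its paralogue Pabpc4 had a like value with a wider error, 0.37 (SE 0.16, adjusted p = 0.0876), from 68.3 and 73.9 CPM in CPEB1 IP and 50.9 and 54.6 in IgG. Pabpc4 was called higher with DESeq2 (0.65, adjusted p = 0.0197), without the filter on low counts (0.77, 0.00455) and with FPKM totals (1.18, 1.76e-06). Pabpc4 shares long near-identical stretches with 9 other genes of the annotation, so reads may have been split between them. Btg1, Cnot1, Cnot8 and Nudt21 each have 1 such gene, with at most 12 counts in any library. Pabpn1, the nuclear poly(A) binding protein, had 32.9 and 26.4 CPM (CPEB1 IP), 45.6 and 53.9 CPM (IgG) and 40.2 and 31.2 CPM (input). It was lower than IgG by a log2 fold change of -0.84 (SE 0.21, adjusted p = 0.00475) but had -0.03 with FPKM totals as library size, and it lost the call without CPEB1 IP replicate 2 (adjusted p = 0.143) or IgG replicate 2 (0.0676). An overlapping gene model, Gm20521, covers 21.4% of its exon bases, so its counts are uncertain.

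In the deadenylation arm 2 genes were higher and 2 lower. Cnot8, a CCR4-NOT catalytic subunit, had 50.8 and 53.3 CPM (CPEB1 IP), 31.9 and 31.3 CPM (IgG) and 42.4 and 38.7 CPM (input), so that input lay between the precipitates. The log2 fold change over IgG was 0.66 (SE 0.20, adjusted p = 0.0143), with adjusted p of 0.0574 without CPEB1 IP replicate 1 and 0.135 without CPEB1 IP replicate 2. Btg2 had 498 and 517 CPM (CPEB1 IP), 350 and 406 CPM (IgG) and 1259 and 1273 CPM (input). It was above IgG by 0.36 (SE 0.10, adjusted p = 0.00757), or 0.31 with adjusted p = 0.0574 without IgG replicate 1, and far below input in both precipitates.

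Cnot4, a ubiquitin ligase linked to CCR4-NOT, had 83.3 and 84.4 CPM (CPEB1 IP), 107 and 127 CPM (IgG) and 72.4 and 67.7 CPM (input). IgG was highest and input lowest, with no overlap. The log2 fold change over IgG was -0.54 (SE 0.14, adjusted p = 0.00408) and turned to 0.26 with FPKM totals as library size. It did not pass without CPEB1 IP replicate 1 (adjusted p = 0.0528), CPEB1 IP replicate 2 (0.0618) or IgG replicate 2 (0.0917). Pan3, the adaptor that brings the PAN2 nuclease to poly(A), had 95.8 and 76.4 CPM (CPEB1 IP), 117 and 107 CPM (IgG) and 54.9 and 65.2 CPM (input), the same order of groups as for Cnot4. The log2 fold change was -0.47 (SE 0.14, adjusted p = 0.0166) and turned to 0.34 with FPKM totals as library size. Without CPEB1 IP replicate 2 it was -0.27 (adjusted p = 0.398), and without IgG replicate 1 it was -0.35 (adjusted p = 0.12).

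The remaining 13 deadenylation genes did not pass against IgG. Cnot1, the scaffold of CCR4-NOT, had 108 and 115 CPM in CPEB1 IP and 135 and 130 in IgG (log2 fold change -0.31, SE 0.12, adjusted p = 0.0572), and 0.50 with FPKM totals as library size. Cnot7, the other CAF1-type nuclease beside Cnot8, had 128 and 106 CPM in CPEB1 IP and 126 and 114 in IgG (-0.12, SE 0.13), and was called higher at 0.69 with FPKM totals. Parn, a poly(A)-specific ribonuclease, had 10.4 and 13.4 CPM in CPEB1 IP and 12.9 and 21.9 in IgG, which overlapped (-0.58, SE 0.36). The values of Btg1 also overlapped, with 678 and 518 CPM against 657 and 680 (-0.23, SE 0.11), but Btg1 was called lower at -0.40 (adjusted p = 0.000933) without CPEB1 IP replicate 1, beside -0.02 without CPEB1 IP replicate 2, and lower with plain counts as library size (adjusted p = 0.0313). Tob1 had 60.8 and 62.5 CPM against 59.2 and 42.2 (0.22, SE 0.18), and Tob2 had 167 and 177 CPM against 146 and 141 (0.20, SE 0.11).

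**Figure D2:**
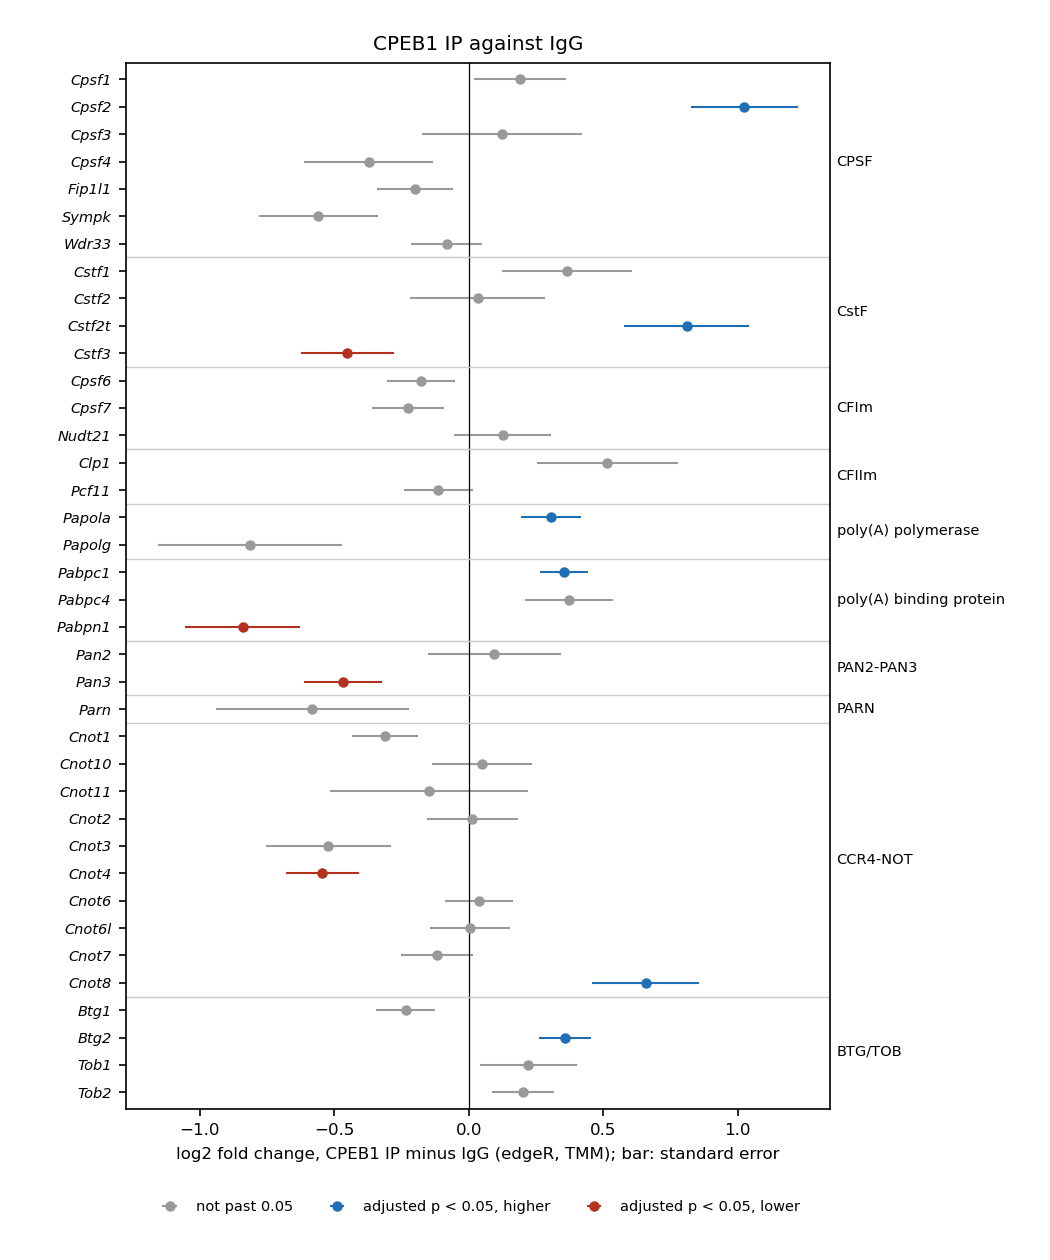
Log2 fold change, CPEB1 IP minus IgG (x axis, edgeR with TMM library sizes) for the 38 genes (y axis, grouped by complex), with a bar of 1 standard error on either side, from 2 libraries per group. The 6 genes called higher (blue) run from 0.31 for Papola to 1.02 for Cpsf2, the 4 called lower (red) from -0.84 for Pabpn1 to -0.45 for Cstf3, and the other 28 (grey) lie between -0.81 and 0.52.

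**Figure D3:**
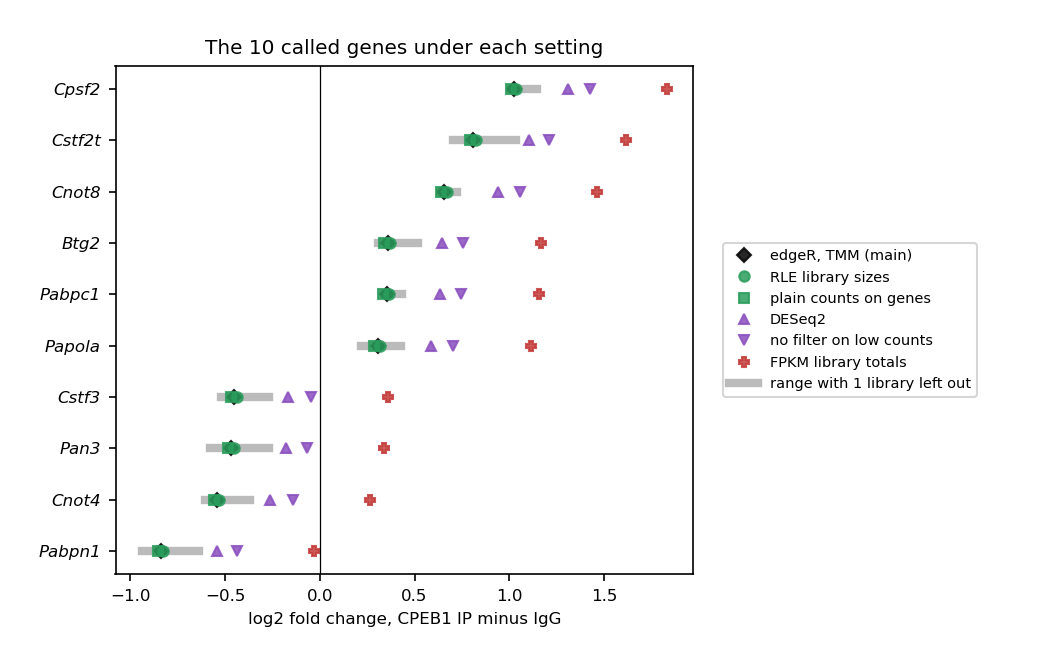
Log2 fold change, CPEB1 IP minus IgG (x axis) of the 10 called genes (y axis) under 6 ways of setting the fit or library size (symbols) and the range when 1 library is left out (grey bar). The settings shift all 10 genes by about the same amount: Cpsf2 runs up to 1.83 and stays above 0 throughout, while Cstf3, Pan3 and Cnot4 reach 0.36, 0.34 and 0.26 with FPKM totals.

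Several paralogues had unlike values in this comparison, and the difference between them was not tested. Cstf2 had a log2 fold change over IgG of 0.03 where Cstf2t had 0.81. Cnot7 had -0.12 where Cnot8 had 0.66, and Papolg had -0.81 where Papola had 0.31. Btg1 had -0.23 where Btg2 had 0.36. Against that, Pabpc1 and Pabpc4 (0.36 and 0.37), Tob1 and Tob2 (0.22 and 0.20), Cnot6 and Cnot6l (0.04 and 0.00), and Cpsf6 and Cpsf7 (-0.18 and -0.23) had values within 0.05 of each other. For the unlike pairs, CPEB1 IP against input gave -0.64 and -0.71 for Cstf2 and Cstf2t, and 0.45 and 0.41 for Cnot7 and Cnot8. It gave 0.02 and 0.29 for Papolg and Papola, and -0.25 and -1.27 for Btg1 and Btg2. In IgG against input these pairs, in the same order, had -0.79 and -1.64, 0.45 and -0.36, 0.71 and -0.13, and -0.13 and -1.74.

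Both precipitates were also compared with input. The tests share the 2 input libraries, and the CPEB1 IP and IgG libraries each appear in a further test, so their values are set side by side and are not independent. In CPEB1 IP, 6 of the 38 genes were higher than input (15.8%), where 17% of all 12171 genes tested were, and 10 were lower (26.3%), where 15.8% of all genes were. In IgG, 3 of the 38 were higher than input (7.89%), where 21.4% of all 12980 genes tested were, and 11 were lower (28.9%), where 19.4% of all genes were. With FPKM totals as library size, the median of all genes moved to -0.19 for CPEB1 IP and -0.85 for IgG. The list then had 1 higher and 12 lower genes in CPEB1 IP (31.0% of all calls higher, from 51.9%) and 0 higher and 28 lower genes in IgG (13.4%, from 52.4%). DESeq2 gave 2 higher and 7 lower genes in CPEB1 IP, and 0 higher and 9 lower genes in IgG (41.6% of all calls higher).

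The largest falls from input to CPEB1 IP were those of Parn and Cpsf3, the endonuclease that cuts the pre-mRNA. Parn had 46.7 and 52.6 CPM in input and at most 21.9 CPM in any precipitate, with log2 fold changes of -1.97 (SE 0.23, adjusted p = 5.24e-05) in CPEB1 IP and -1.51 (SE 0.30, adjusted p = 8.02e-05) in IgG. In FPKM it was the 24th of the 38 genes in input and had the lowest mean of all in both precipitates, although Papolg was below it in CPEB1 IP replicate 2 and Cstf2 in IgG replicate 2. Cpsf3 had 70.6 and 86.3 CPM in input, 20.0 and 22.1 in CPEB1 IP, and 21.3 and 16.0 in IgG. Its log2 fold changes were -1.83 (SE 0.19, adjusted p = 2.2e-05) and -2.07 (SE 0.26, adjusted p = 6.42e-08). For both genes the precipitates overlapped each other and lay below input, and the calls held under all 12 alternatives of each comparison.

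The BTG/TOB genes, which encode adaptors that link CCR4-NOT to mRNA or to poly(A) binding protein, were lower than input in 3 of 4 cases in each precipitate. Btg2 had log2 fold changes over input of -1.27 (SE 0.12, adjusted p = 1.59e-05) in CPEB1 IP and -1.74 (SE 0.14, adjusted p = 5.47e-13) in IgG. Tob1, with 110 and 146 CPM in input, had -1.0 (SE 0.16, adjusted p = 0.000571) and -1.34 (SE 0.21, adjusted p = 2.45e-06). Both genes kept these calls under all 12 alternatives. Tob2, with 231 and 244 CPM in input, had -0.41 (SE 0.13, adjusted p = 0.0272) in CPEB1 IP and -0.73 (SE 0.16, adjusted p = 0.000364) in IgG. The former missed the threshold with a replicate block (adjusted p = 0.0622) and without CPEB1 IP replicate 1 (0.34) or CPEB1 IP replicate 2 (0.19). Btg1, with 630 and 838 CPM in input, did not pass in either (-0.25 and -0.13).

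Other genes lower than input in both precipitates were Cnot10, a CCR4-NOT subunit (-0.87 in CPEB1 IP and -1.03 in IgG), the nuclease Pan2 (-0.66 and -0.87), Cstf2 (-0.64 and -0.79), Cstf2t (-0.71 and -1.64) and Cpsf1 (-0.51 and -0.82). Of these, the calls of Cstf2, Pan2 and Cpsf1 in CPEB1 IP were lost when either CPEB1 IP library was left out. Cstf2t did not pass when CPEB1 IP replicate 2 was left out (adjusted p = 0.14), nor Cnot10 when CPEB1 IP replicate 1 was (0.0659). In IgG, Cpsf1 and Cstf2 lost the call without IgG replicate 2 (0.0605 and 0.323), and Pan2 without IgG replicate 1 or without input replicate 1 (up to 0.174). Cpsf2 was lower than input only in the IgG test (-0.95, SE 0.26, adjusted p = 0.00281), where CPEB1 IP had 0.19 (SE 0.16, adjusted p = 0.377).

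Higher than input in CPEB1 IP were Cnot11, Pabpc4, Cstf1, Cnot6l, Pan3 and Pabpc1. Cnot11 was at low counts throughout, with 5.22 and 6.61 CPM in input, 15.0 and 10.9 in CPEB1 IP, and 13.7 and 13.1 in IgG, and its log2 fold changes were 1.15 (SE 0.36, adjusted p = 0.0267) and 1.17 (SE 0.47, adjusted p = 0.0418). Neither call held with DESeq2 or with FPKM totals as library size, nor when either library of the precipitate or input replicate 1 was left out. Pan3 was likewise higher than input in both, by 0.56 (SE 0.17) and 0.90 (SE 0.19). Both of these Pan3 calls were lost with DESeq2 and with FPKM totals as library size, and with FPKM totals the IgG value was 0.02. Cnot4 was higher than input in IgG alone, by 0.74 (SE 0.19) against 0.31 (SE 0.15, adjusted p = 0.132) in CPEB1 IP. With FPKM totals as library size Cnot4 in IgG turned to -0.14, and without IgG replicate 2 its adjusted p was 0.109. Pabpc4 rose by 0.91 (SE 0.17, adjusted p = 0.00129) in CPEB1 IP and held under all 12 alternatives, beside 0.42 (SE 0.24, adjusted p = 0.157) in IgG. Cstf1, a CstF subunit, had 0.73 (SE 0.23) and Cnot6l, a CCR4-type nuclease, 0.57 (SE 0.16) in CPEB1 IP, with 0.25 and 0.45 in IgG. The calls of Cstf1, Cnot6l and Pan3 in CPEB1 IP were lost when either CPEB1 IP library was left out, that of Cstf1 also without input replicate 2 and that of Cnot6l without input replicate 1. Those of Cstf1 and Cnot6l were also lost with DESeq2 and with FPKM totals as library size.

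**Figure D4:**
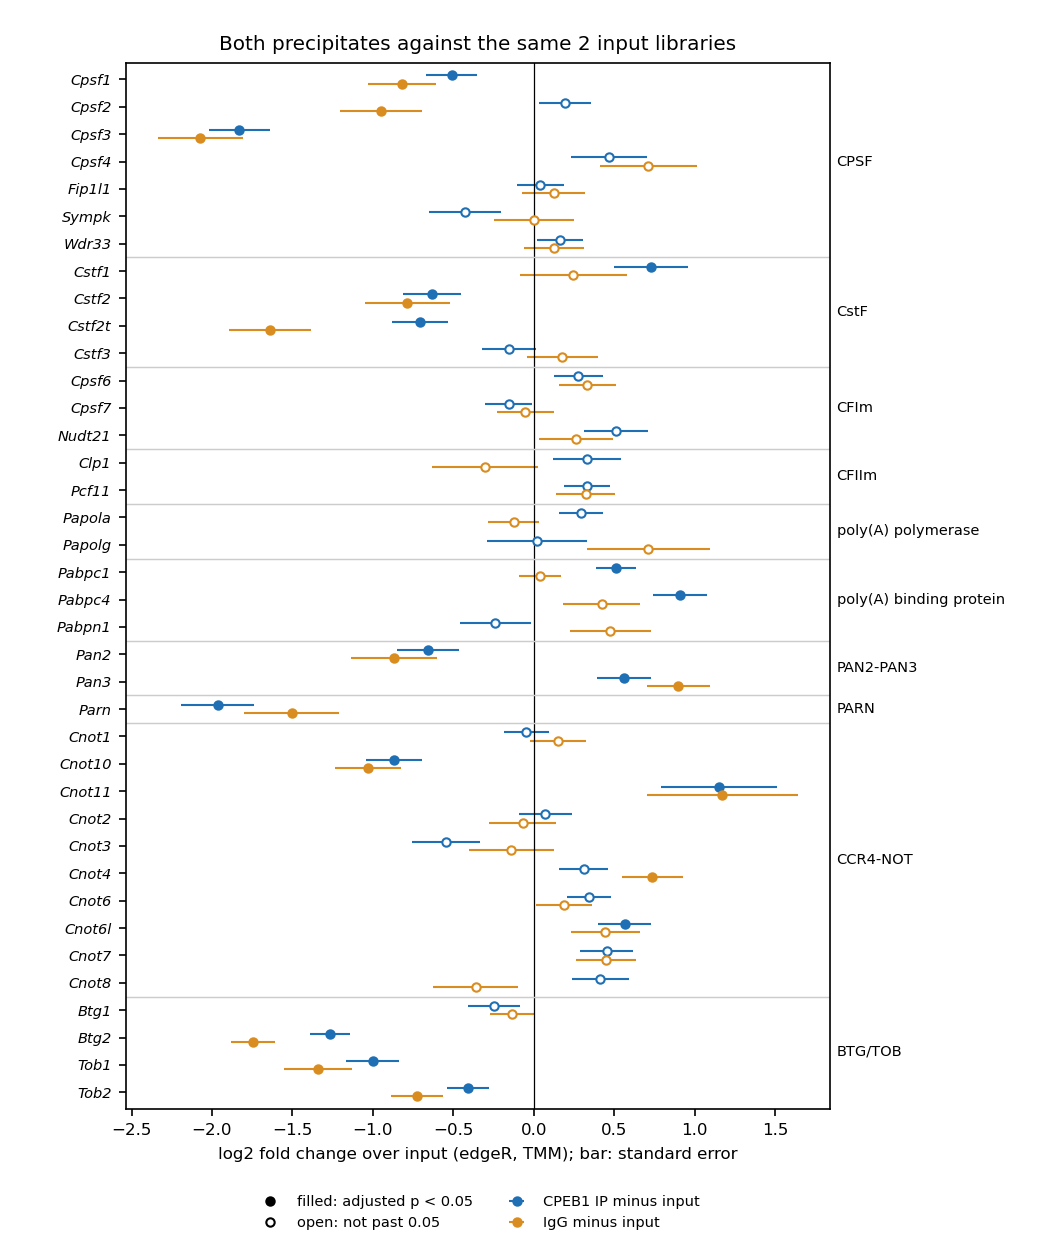
Log2 fold change over the same 2 input libraries (x axis) of CPEB1 IP (blue) and IgG (orange) for the 38 genes (y axis, grouped by complex), with bars of 1 standard error on either side; filled circles passed the test. Parn, Cpsf3, Btg2 and Tob1 lie at -1.0 or below in both precipitates, and Pabpc1 lies at 0.51 in CPEB1 IP and 0.04 in IgG.

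Across the 3 comparisons, 16 of the 38 genes never passed the test, among them all of CFIm (Nudt21, Cpsf6, Cpsf7) and CFIIm (Pcf11, Clp1). Pabpc1, called higher than IgG, was also called higher than input, by 0.51 (SE 0.12, adjusted p = 0.00661). Leaving out either CPEB1 IP library ended its call over input (0.47 without replicate 1 and 0.53 without replicate 2). With FPKM totals as library size its value over input was 0.32 and was not called (adjusted p = 0.119). Btg2 and Cstf2t were higher than IgG but lower than input. Cpsf2, Papola and Cnot8 were higher than IgG with no call over input. By complex, the summed level of the 3 poly(A) binding proteins was 1366 and 1272 CPM (CPEB1 IP), 1006 and 1018 CPM (IgG) and 939 and 982 CPM (input), mostly Pabpc1. That of the 4 BTG/TOB genes was 1405 and 1274 CPM (CPEB1 IP), 1212 and 1270 CPM (IgG) and 2231 and 2502 CPM (input), while the 10 CCR4-NOT genes stayed between 709 and 801 CPM in all 6 libraries.

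The study took a gene as CPEB1-associated when its FPKM was more than 2 times as high in CPEB1 IP as in IgG in each experiment and DESeq2 called it. That criterion was applied here with 1 added to each FPKM and with the edgeR call, and the DESeq2 call also gave 5 genes of the list. It was met by 5 of the 38 genes, Cpsf2, Cstf2t, Pabpc1, Cnot8 and Btg2, and by 12.1% of all 12124 genes tested. Cpsf2 had ratios of 2.58 and 2.82, Cnot8 of 2.31 and 2.59, Cstf2t of 2.81 and 2.17, Btg2 of 2.27 and 2.18, and Pabpc1 of 2.22 and 2.20. Just outside were Papola, with 1.9 and 2.20, and Clp1, with 2.34 and 1.98 and no edgeR call. Pabpc4 had 1.98 and 2.12 and no edgeR call, but DESeq2 called it higher (log2 fold change 0.65, adjusted p = 0.0197). The FPKM of Pabpc4 was 11.1 and 12.5 in CPEB1 IP and 5.12 and 5.36 in IgG, more than 2 times as high in each experiment. Without the added 1 and with the DESeq2 call, Pabpc4 therefore met the criterion as the study stated it. Genes make up a smaller share of the totals behind the FPKM in IgG than in CPEB1 IP, as given above, and with FPKM recomputed from the TMM library sizes, 0 of the 38 genes and 56 of all genes met the criterion.

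The input level and the length of a gene moved with its place in CPEB1 IP against IgG. Across the 38 genes, Spearman's rho of the log2 fold change was 0.46 with input FPKM and -0.39 with exon length, beside 0.63 and -0.28 across all 12124 genes tested. In CPEB1 IP against input these values were -0.27 and -0.005 across the 38 genes, beside 0.004 and -0.09 across all genes tested. In IgG against input they were -0.47 and 0.20, beside -0.54 and 0.11. With the number of CPEs in the longest 3′ UTR, rho for CPEB1 IP against IgG was 0.01 across the 38 genes. It was -0.16 across the 10881 tested genes with a 3′ UTR. In CPEB1 IP against input, rho with the number of CPEs was 0.40 across the 38 genes, beside 0.03 across tested genes with a 3′ UTR. In IgG against input it was 0.32, beside 0.12. Genes are not independent replicates, all points share the same 6 libraries, and the part of level or length in the calls was not tested. The 6 genes called higher had a median of 17.3 FPKM in input and 4982 exon bases, and the 4 called lower had 6.20 FPKM and 7829 exon bases.

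A further 27 genes around the poly(A) tail were read beside the list, and 26 of them were tested. The mRNA of Cpeb1 itself, the precipitated protein, had 197 and 216 CPM (CPEB1 IP), 90.4 and 95.4 CPM (IgG) and 97.6 and 82.2 CPM (input). It was higher than IgG by 1.09 (SE 0.12, adjusted p = 2.5e-06) and higher than input by 1.25 (SE 0.15, adjusted p = 6.25e-05). Against IgG 4 of the 26 were higher (15.4%, beside 14.7% of all genes): Cpeb1, the CCR4-NOT-recruiting ARE-binding proteins Zfp36 (0.56) and Zfp36l1 (0.52), and Paip2 (0.37), an inhibitor of poly(A) binding protein. The calls of Cpeb1, Zfp36 and Zfp36l1 held under all 12 alternatives, and Paip2 did not pass when CPEB1 IP replicate 2 (adjusted p = 0.0674) or IgG replicate 1 (0.0602) was left out. The higher genes numbered 8 with DESeq2, 11 without the filter and 23 with FPKM totals. The 2 that were lower (7.69%, beside 18.7% of all genes) were Angel1 (-1.38), at 8 to 20 counts per library, and the deadenylase-like Noct (-0.42). Neither was called lower with DESeq2, FPKM totals as library size, no filter on low counts or all 6 libraries in 1 fit, nor without CPEB1 IP replicate 2, IgG replicate 1 or IgG replicate 2, and Noct turned to 0.39 with FPKM totals. Angel1 also lost the call with a replicate block (adjusted p = 0.0659) and without CPEB1 IP replicate 1 (0.387). Zfp36 had the same pattern of calls as Btg2: 462 and 429 CPM (CPEB1 IP), 292 and 285 CPM (IgG) and 872 and 1030 CPM (input). Against input 9 of the 26 were higher in CPEB1 IP (34.6%, beside 17% of all genes), including the cytoplasmic poly(A) polymerase Tent2 (GLD2) at 0.74 (SE 0.18, adjusted p = 0.00648), which had 0.37 (SE 0.17, adjusted p = 0.0963) over IgG and lost the call over input without CPEB1 IP replicate 2 (adjusted p = 0.0802), and 3 were lower (11.5%, beside 15.8%). In IgG 5 were higher than input (19.2%, beside 21.4%) and 4 lower (15.4%, beside 19.4%). With FPKM totals as library size these became 5 higher and 3 lower genes in CPEB1 IP and 0 higher and 16 lower genes in IgG. Without CPEB1 IP replicate 1 the genes above input in CPEB1 IP numbered 5, and without CPEB1 IP replicate 2 also 5. Without IgG replicate 1 there were 2 higher and 1 lower in IgG, and without IgG replicate 2 there were 3 and 3.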

How the data were processed

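RIP-seq libraries (2 CPEB1 IP, 2 IgG, 2 input) were made by SMART-seq2 from SCs of mice. The authors deposited raw counts per gene, from HISAT2 mapping to mm10 and featureCounts, and FPKM computed with library totals above the counts on genes. The submitters' notes also name StringTie. Annotation release, strand setting and multi-mapping are not given in the sources used here. Positions, exon lengths and 3′ UTRs came from GENCODE M21, which matched the span and exon length of all 38 genes. Counts were tested with edgeR 4.0.16 in R 4.3.3 (filterByExpr, TMM, quasi-likelihood test, Benjamini-Hochberg), 2 groups at a time and with no block. CPM used TMM library sizes over all 6 libraries. The SE is the log2 fold change divided by the root of F. DESeq2 1.42.0 was an alternative; Python 3.11.15, pandas 2.3.3, scipy 1.17.1, matplotlib 3.10.9 and blastn 2.17.0 (at least 95% identity over 300 bases) were also used. Procedures were tested on simulated data. The rule for the 38 genes uses names alone, but it and the other lists were chosen with earlier results of these data known. Values in every library are given for genes called against IgG, for those past 1 on the log2 scale against input, and for a set list of central factors; other genes are given by single values. Nab2 was listed among further genes and left out, since in the mouse it names a transcription cofactor. The motifs searched, on the mRNA strand, were TTTTAT and TTTTAAT; a list of 9 motifs was an alternative. Same-numbered libraries of different groups had correlated deviations from group means of -0.01 (CPEB1 IP and IgG), -0.01 (CPEB1 IP and input) and 0.03 (IgG and input) over 14276 genes. Each alternative and each library left out was run for all comparisons.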

Additional observations from a re-analysis of the deposited data

How the results depend on the processing

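Of 40 calls of the 38 genes over the 3 comparisons, 15 held under all 12 alternatives of their comparison and 36 kept their direction under all of them. Precision is limited by 2 libraries per group and by the depth of IgG.

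Genes of the list higher in CPEB1 IP than IgG (6) numbered 29 with FPKM totals as library size and 11 without the filter on low counts, and 4 to 5 with a library left out. Those lower (4) numbered 0 with DESeq2, 0 with FPKM totals, 0 without the filter, 2 with all 6 libraries in 1 fit, and 0 to 4 with a library left out. Genes higher in CPEB1 IP than input (6) numbered 2 with DESeq2, 1 with FPKM totals and 1 to 10 with a library left out, and those lower (10) numbered 5 to 12 with a library left out. Genes higher in IgG than input (3) numbered 0 with DESeq2, 0 with FPKM totals, 1 without the filter, 5 each with RLE sizes, plain counts, protein-coding genes only and all 6 libraries in 1 fit, and 1 to 5 with a library left out. Those lower (11) numbered 28 with FPKM totals and 9 to 11 with a library left out. The fold criterion (5 genes) was met by 2 with a pseudocount of 5 and by 0 with FPKM from TMM library sizes, and by 5 to 6 when only 1 experiment was used. FPKM totals rescale every gene of a comparison alike. Other causes were not tested.

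A replicate block gave 5 higher and 3 lower genes for CPEB1 IP against IgG, 6 and 9 for CPEB1 IP against input, and 5 and 11 for IgG against input. The block ended the calls of Papola and Cstf3 over IgG and of Tob2 in CPEB1 IP over input.

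Among genes called in either fit, values that turned sign with FPKM totals as library size were, for CPEB1 IP against IgG, Cpsf6 0.63, Cpsf7 0.58, Cstf3 0.36, Fip1l1 0.61, Wdr33 0.73, Pcf11 0.70, Pan3 0.34, Cnot1 0.50, Cnot4 0.26, Cnot7 0.69 and Btg1 0.57. For IgG against input they were Cpsf6 -0.56, Cstf3 -0.71, Sympk -0.87, Fip1l1 -0.75, Wdr33 -0.75, Nudt21 -0.63, Pcf11 -0.56, Pabpc1 -0.84, Cnot1 -0.73, Cnot4 -0.14 and Cnot6 -0.69. A further 5, 7 and 4 values (the last for CPEB1 IP against input) turned sign without a call in either fit, reaching 0.23 to 0.66, -0.62 to -0.16 and -0.16 to -0.03.

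With the 9 motifs, 34 of the 38 genes (89.5%) held a CPE, beside 74.4% of the genes tested against IgG, and with the longest 3′ UTR only 32 (84.2%) did, beside 65.4%.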
